A study of Homo sapiens with 4 samples.

Results

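The genes described are 10 genes for subunits of the vacuolar H+-ATPase (V-ATPase), of 19775 genes read by the array. They are ATP6V0D2, its paralog ATP6V0D1, ATP6V0A1, ATP6V0A2 and ATP6V0C of the V0 sector, and ATP6V1A, ATP6V1B2, ATP6V1C1, ATP6V1E1 and ATP6V1H of the V1 sector. Every probe set annotated with exactly 1 of these symbols was taken, 25 in all. The set was selected on the expression differences of ATP6V0D2 in these 4 arrays, above all its low reading after transient ZEB2 knockdown, so the values of ATP6V0D2 below are a description and carry no test. The other 9 were added as its paralog and as subunits found in most cells.

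The V-ATPase is a rotary pump that uses ATP to move protons into lysosomes, endosomes and other organelles, and in some cells across the plasma membrane. Its cytosolic V1 sector hydrolyses ATP, and its V0 sector, embedded in the membrane, carries the protons. Subunit d sits at the base of the central stalk and links the sectors. Most tissues use the d1 form, encoded by ATP6V0D1, while the d2 form, encoded by ATP6V0D2, is best known from osteoclasts, macrophages and kidney. In tumour cells the pump has been studied for its part in lysosome function and in acid export at the cell surface.

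All RNA came from the human breast carcinoma line MDA-MB-231, hybridised to 4 Affymetrix U133 Plus 2 arrays, 1 per group. The stable pair held cells transduced with the control vector pLVTH (shRNA control) and cells transduced with a short hairpin RNA against ZEB2 (shRNA ZEB2), a transcriptional repressor of epithelial genes. The transient pair held cells transfected by the Dharmafect reagent with 20 nM of siRNA against luciferase (siRNA control) or of an siRNA pool against ZEB2 (siRNA ZEB2), washed after 24 hours and harvested 48 hours later. Labelled RNA was prepared from 2 µg of total RNA in the stable pair and from 100 ng in the transient pair. The labels do not say whether a transduced line was 1 clone or a pool. With 1 array per group no value has a replicate check, no test was made, and precision is limited by having only 4 arrays.

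Values are log2 expression values, and a difference of 1 is 2-fold. The 4 array medians lay between 5.34 and 5.37. A gene is represented by its brightest probe set, and 15082 genes reached the filter level of 4.77, the 40th percentile of all values, on at least 1 array. ZEB2, the target, differed by -3.05 in the transient and by -2.60 in the stable pair through its brightest probe set. That probe set read 3.51 on siRNA ZEB2 and 3.52 on shRNA ZEB2, both under the filter level. A second ZEB2 probe set, above the filter level on both controls, differed by -1.50 and -1.33. The remaining ZEB2 probe sets, under that level on every array, differed by -0.08 to 0.42 in the transient and by 0.03 to 0.13 in the stable pair. Of the markers of this mesenchymal-like line, the 6 measured (VIM, CD44, EGFR, AXL, CAV1 and MSN) read between 10.59 and 14.12 on every array. Of 6 luminal breast markers, PGR and FOXA1 stayed under the filter level on every array, whereas ESR1, ERBB2, GATA3 and KRT19 were above it. All 10 pump genes reached the filter level through their brightest probe set on every array, and 4 of the 25 probe sets (2 of ATP6V0A2 and 2 of ATP6V1H) stayed under it throughout.

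Upstream sequence was in the RefSeq tables (GRCh38.p14) for 5 of the 10 genes, namely ATP6V0D1, ATP6V0A1, ATP6V0A2, ATP6V0C and ATP6V1E1, in 7 windows of 300 bases from 250 before to 50 after an annotated start. These windows were searched on both strands for CACGTG, the E-box core that MiT/TFE factors of lysosomal genes recognise, which is its own reverse complement, and for CACCTG, the E-box form that ZEB proteins recognise. CACGTG was found in 1 gene, ATP6V0D1, and in 7.26% of all 35116 windows. CACCTG was found in 4 of the 5 genes (4 of 7 windows) and in 20.6% of all windows. The motifs do not overlap in any of these windows. The 100 bases before the start are shown for ATP6V0D1 (chr16:67481158-67481257, minus strand), which held both motifs, for 1 of the starts of ATP6V1E1 (chr22:17628750-17628849, minus strand), which held CACCTG, and for ATP6V0A2 (chr12:123712253-123712352, plus strand), which held neither. Capitals mark the motifs.

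ATP6V0D1: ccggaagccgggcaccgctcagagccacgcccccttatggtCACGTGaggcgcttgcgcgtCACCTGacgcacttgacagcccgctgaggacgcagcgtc

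ATP6V1E1: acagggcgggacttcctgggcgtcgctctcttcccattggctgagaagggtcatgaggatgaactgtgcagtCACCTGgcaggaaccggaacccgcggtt

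ATP6V0A2: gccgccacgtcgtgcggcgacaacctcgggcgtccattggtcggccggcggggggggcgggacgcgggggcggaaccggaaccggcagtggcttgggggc

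In ATP6V0D1 the CACGTG begins 59 bases and the CACCTG 39 bases before the start, and in ATP6V1E1 the CACCTG begins 28 bases before it. In ATP6V0C and ATP6V0A1 the CACCTG lies farther out, at 106 and 217 bases. A match shows only that these letters are present. The expression values of these 5 genes follow below, and none differed by 2-fold in either knockdown through its brightest probe set. Of all genes 0.172% did in the transient and 4.47% in the stable pair.

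The transient pair shows the pump genes a few days after ZEB2 was lowered. ATP6V0D2, the tissue-restricted d2 subunit, read 8.02 on the siRNA control and 6.28 on the siRNA ZEB2 array through its brightest probe set (1553153_at), a difference of -1.74 or 3.34-fold lower. The other probe sets showed the same. The cross-hybridising type 1553155_x_at read 7.47 and 5.60, a difference of -1.87, and 1553151_at read 6.98 and 5.15, a difference of -1.83. The 3 readings thus spanned 0.132, against a median span of 0.267 over the 7584 genes with at least 2 probe sets at the filter level. All 3 stayed above that level on both arrays. They read the same RNA on the same arrays, so their closeness is no separate check of a difference that chose the set. At 2-fold 0.175% of probe sets at the filter level and 0.126% of genes were lower in this pair, the latter 19 of 15082. ATP6V0D2 was the 1 pump gene among them and the third lowest of all genes, which is the reading that chose it. In RNA from whole cultures, fewer cells expressing a gene and less RNA per cell cannot be told apart.

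The stable knockdown showed the same sign in ATP6V0D2 but a smaller size. The brightest probe set read 6.85 on the shRNA control and 6.41 on the shRNA ZEB2 array, a difference of -0.44 or 1.36-fold lower. The others read 6.34 and 5.80 (-0.55) and 6.10 and 5.39 (-0.71). The last was at least 1.5-fold lower, as were 7.38% of probe sets at the filter level in this pair. In the stable pair 3621 genes differed by more than ATP6V0D2 did, compared with 2 genes in the transient pair. The gap between -1.74 and -0.44 could not be tested.

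The order of the arrays was the same in all 3 ATP6V0D2 probe sets. The siRNA control was highest, then the shRNA control, then shRNA ZEB2, and siRNA ZEB2 was lowest. The siRNA control stood above the shRNA control by 1.16, 1.13 and 0.88. The knockdown arrays lay closest together, 0.13, 0.20 and 0.24 apart. By these readings the transient pair had the higher control level, and its knockdown level was lower by 0.13 to 0.24. Levels of the pairs also come from unlike amounts of labelled RNA and means of delivery. Why the knockdown differences were unlike in size was not tested. Both knockdown differences of ATP6V0D2 and its difference between the controls use the same 2 control arrays, so these values are not independent.

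**Figure D1:**
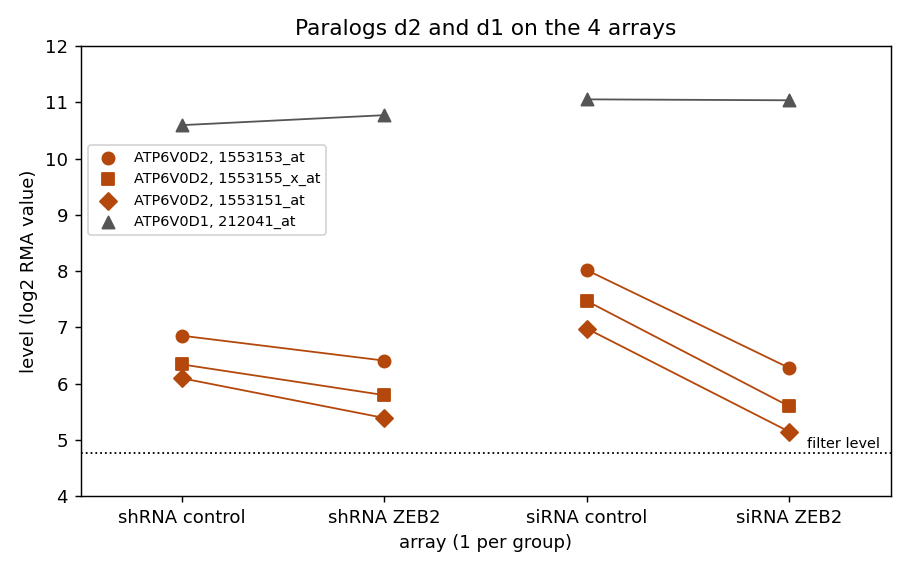
Level (log2 RMA value) of the 3 ATP6V0D2 probe sets and the ATP6V0D1 probe set on each array, 1 array per group, with lines joining control and knockdown of a pair; the dotted line is the filter level of 4.77. The ATP6V0D2 probe sets are highest on the siRNA control, from 6.98 to 8.02, and the ATP6V0D1 line is nearly flat, between 10.59 and 11.05. Heights of different probe sets cannot be compared.

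ATP6V0D1, the d1 paralog found in most cells, has 1 probe set. It read 10.59 on the shRNA control, 10.77 on shRNA ZEB2, 11.05 on the siRNA control and 11.03 on siRNA ZEB2. Its differences were -0.02 in the transient pair and 0.18 in the stable pair, and the first turned above 0 under another scaling of the arrays. The d2 difference minus the d1 difference was -1.72 in the transient pair and -0.62 in the stable pair.

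The other membrane subunits were close to level in the transient pair. ATP6V0A1 and ATP6V0A2 encode forms of subunit a, which forms the proton path and steers the pump to different membranes. ATP6V0A1 read 8.26, 8.53, 8.39 and 8.37 on shRNA control, shRNA ZEB2, siRNA control and siRNA ZEB2. Its second probe set (205095_s_at) read 6.88, 7.40, 5.70 and 6.16, so it was higher in both knockdowns, by 0.52 and by 0.47, where the brightest differed by 0.26 in the stable pair and by -0.02 in the transient pair. ATP6V0A2 read 7.58, 7.66, 7.51 and 7.33, with differences of 0.08 in the stable and -0.18 in the transient pair. Its 4 probe sets at the filter level ranged from -0.20 to 0.08 in the stable pair and from -0.18 to 0.30 in the transient pair, with no common direction. ATP6V0C, the proteolipid whose copies form the rotating ring, read 11.39, 11.28, 10.97 and 11.04. Both of its probe sets were slightly lower in the stable pair (-0.11 and -0.08) and slightly higher in the transient pair (0.07 and 0.12).

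The cytosolic subunits were also short of 1.5-fold in both knockdowns. ATP6V1C1 had the largest stable difference of the 9 other genes. It encodes subunit C, which clamps V1 to V0 and is released when the pump disassembles. Its brightest probe set read 10.53, 11.05, 11.004 and 11.05 on shRNA control, shRNA ZEB2, siRNA control and siRNA ZEB2. All 4 ATP6V1C1 probe sets were higher in both knockdowns, by 0.35 to 0.52 in the stable pair and by 0.05 to 0.47 in the transient pair, each short of 1.5-fold. ATP6V1A, the catalytic subunit that hydrolyses ATP, read 10.93, 10.63, 11.07 and 11.17, and both of its probe sets were lower in the stable pair (-0.31 and -0.22) and slightly higher in the transient pair (0.10 and 0.08). ATP6V1B2, its non-catalytic partner, read 10.48, 10.30, 10.31 and 10.15, lower by about the same size in both pairs (-0.19 and -0.16). ATP6V1E1, of the peripheral stalks, read 10.70, 10.82, 11.41 and 11.41. ATP6V1H, a regulatory subunit, read 9.72, 9.71, 10.15 and 10.20. For ATP6V1E1 and ATP6V1H the arrays of a pair lay nearer to each other than to the other pair.

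**Figure D2:**
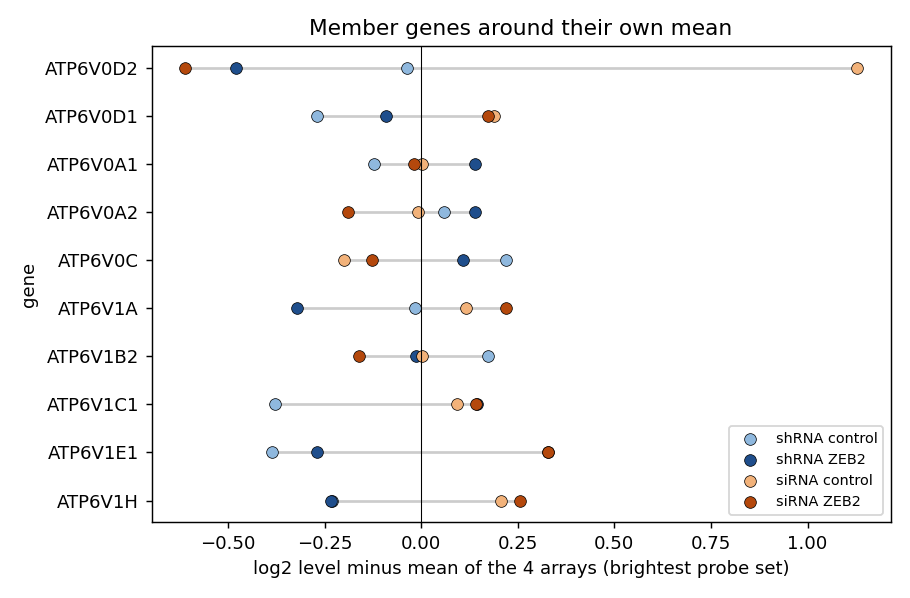
Log2 level of each pump gene (brightest probe set) on each array, minus the gene's mean over the 4 arrays; grey lines span the range, and points of equal value overlap. ATP6V0D2 spans 1.74, with the siRNA control far to the right, and the other 9 genes span between 0.26 and 0.72.

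Over the other 9 genes the transient differences had a median of 0.002 and ran from -0.18 to 0.10, beside a median of -0.02 over all 15082 genes. None of the 9 passed 1.5-fold in this pair, where 2.2% of all genes did either way. Among their 18 probe sets at the filter level the range was -0.18 to 0.47, and 0 passed 1.5-fold, beside 2.96% of probe sets. In the stable pair the median of the 9 was 0.08 and the range -0.31 to 0.52, beside a median of -0.02 over all genes. The median turned to -0.10 when probe sets were averaged. Again none of the 9 passed 1.5-fold, as 14.7% of all genes did, nor any of their 18 probe sets, beside 15.7% of probe sets. With so few genes the transient counts of 0 lie near what those shares give. The stable shares are larger, but the 18 probe sets belong to only 9 genes, and no conclusion is drawn from the stable counts. The median size of difference was 0.05 for the 9 and 0.14 for all genes in the transient pair, and 0.18 and 0.22 in the stable pair.

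The siRNA control was compared with the shRNA control to see how the pump genes differ between cultures that both keep ZEB2. ATP6V0D2 was higher in the siRNA control by 1.16, and 10.8% of genes were at least 2-fold higher in this comparison. ATP6V1E1 was higher by 0.71, past 1.5-fold, which 21.9% of genes passed in that direction. ATP6V1C1 (0.47), ATP6V0D1 (0.46), ATP6V1H (0.44), ATP6V1A (0.13) and ATP6V0A1 (0.12) were higher through their brightest probe sets, and ATP6V0C (-0.42), ATP6V1B2 (-0.17) and ATP6V0A2 (-0.07) lower.

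Probe sets of the same pump gene disagreed more in this comparison than within either pair for 5 of the 6 genes with at least 2 at the filter level. The other was ATP6V0A2, whose probe sets spanned 0.409 here, 0.485 in the transient and 0.279 in the stable pair. For ATP6V1C1 they gave 0.61, 0.47, 0.03 and -2.38, the last from 202873_at, which read 7.60 and 8.06 on the stable arrays and 5.22 and 5.65 on the transient arrays. For ATP6V1A they gave 0.13 and -1.76, and 201971_s_at behind the latter read 9.59 and 9.37 against 7.84 and 7.92. For ATP6V0A1 they gave 0.12 and -1.19, and for ATP6V0C -0.42 and -1.04. In each case the dimmer probe set was low on both transient arrays, and its arrays of 1 pair lay within 0.52 of each other. For ATP6V0D2 the 3 probe sets gave between 0.88 and 1.16, a span of 0.282.

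Of those 6 pump genes, 3 had differences between the controls that spanned 1 or more, as 37.1% of all genes with several probe sets did. Within the transient pair 0 of the 6 and 1.36% of all genes did so, and within the stable pair 0 of the 6 and 6.51% of all genes. The amount of RNA labelled differed between the pairs in the same way (2 µg and 100 ng), as did the means of delivery, and these cannot be told apart. At 2-fold, 4 of the 18 probe sets outside ATP6V0D2 were lower in the siRNA control and 0 higher, against 10.1% of probe sets lower and 9.11% higher. When probe sets of a gene were averaged, the median of the 9 genes between the controls was -0.32 in place of 0.13.

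**Figure D3:**
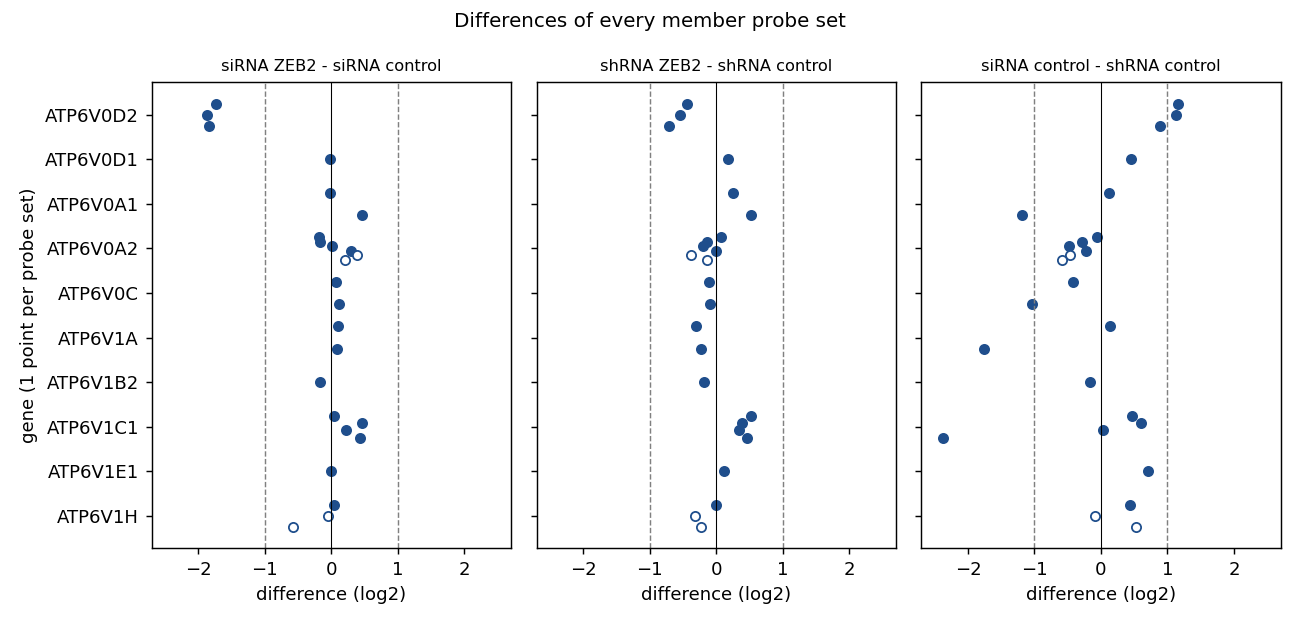
Difference (log2) of each of the 25 pump probe sets in the transient pair, the stable pair and between the controls; filled points reached the filter level of 4.77 on at least 1 array, open points did not, and dashed lines mark 2-fold. Apart from ATP6V0D2 all filled points lie within -0.31 and 0.52 in both knockdown panels, and between the controls they reach from -2.38 to 0.71.

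Of the 16 other subunit and accessory genes of the pump, 13 were measured and 12 reached the filter level. In the transient pair 4 read higher and 8 lower, the median was -0.03, and 0 passed 2-fold either way, beside 0.172% of all genes. In the stable pair 6 were higher and 6 lower, and 1 passed 2-fold, beside 4.47% of all genes. That gene was ATP6V0E2, a form of the small subunit e, which read 8.62 on the shRNA control, 7.29 on shRNA ZEB2, 8.56 on the siRNA control and 8.999 on siRNA ZEB2, so that the shRNA ZEB2 array stood apart (-1.33 and 0.44). The tissue-restricted forms differed in level. ATP6V1B1, ATP6V1C2, ATP6V1G2 and ATP6V1G3 read between 4.41 and 5.16 on every array, at or near the filter level, and ATP6V1E2 between 5.93 and 6.35. TCIRG1, the a3 form best known from osteoclasts, read between 8.34 and 8.75. The differences of these forms had no common direction. TCIRG1 (-0.33 in the transient and -0.32 in the stable pair), ATP6V1E2 (-0.41 and -0.13) and ATP6V1C2 (-0.05 and -0.08) read lower in both knockdowns, short of 1.5-fold. ATP6V1G2, under the filter level on every array, read higher in both (0.34 and 0.28). ATP6V1B1 (-0.02 and 0.10) and ATP6V1G3 (-0.31 and 0.17) changed sign between the pairs.

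Factors for assembly and regulation of the pump showed no common direction. Among the 12 measured, the transient pair had 4 higher and 8 lower, the stable pair 6 and 6, and 0 passed 2-fold in either. Of all genes 0.172% passed 2-fold in the transient and 4.47% in the stable pair. ALDOC, an aldolase of a glycolytic enzyme family that binds the pump, differed by -0.63 in the transient and 0.56 in the stable pair, and TBC1D24, a protein with a TLDc domain, by -0.14 and -0.81.

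Among the MiT/TFE transcription factors of lysosomal and pump genes and their regulators, 8 of 9 genes reached the filter level, with medians of 0.05 in the transient and -0.03 in the stable pair. MITF was the 1 of the 8 to pass 2-fold in the stable pair, beside 4.47% of all genes. It read 8.36 on the shRNA control, 9.58 on shRNA ZEB2, 9.93 on the siRNA control and 10.27 on siRNA ZEB2, and was thus lowest on the shRNA control. The mean of its 3 probe sets gave 0.75 in the stable pair and 0.20 in the transient pair, in place of 1.22 and 0.34. The Ragulator, Rag and mTORC1 proteins sense amino acids at the lysosome together with the pump. Of 13 genes for them, 0 passed 2-fold in the transient pair, beside 0.172% of all genes. In the stable pair 1 did, beside 4.47%. It was SLC38A9, a lysosomal amino acid sensor, which read 7.30, 8.37, 8.99 and 8.82 on shRNA control, shRNA ZEB2, siRNA control and siRNA ZEB2. The mean of its 2 probe sets gave 0.53 in place of 1.07.

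The 29 lysosomal membrane and enzyme genes, whose products work in the acid that the pump makes, were level in the transient pair. There 11 read higher and 18 lower, the median was -0.04 and 0 passed 2-fold, beside 0.172% of all genes. The stable pair had 17 higher and 12 lower, at a median of 0.10. NPC2, which carries cholesterol out of lysosomes, was the 1 gene of these to pass 2-fold, at 1.05, beside 4.47% of all genes. It read 11.46, 12.52, 13.36 and 13.28, lowest on the shRNA control. Between the controls 27 of the 29 were higher in the siRNA control, with a median of 1.09 beside 0.06 for all genes, and 15 passed 2-fold, beside 10.8% of all genes. When probe sets were averaged 7 of the 29 did, beside 7.63% of all genes, and the median was 0.59. Other lists were also higher in the siRNA control. Those were 8 of 8 MiT/TFE genes (median 0.74), 11 of 13 Ragulator, Rag and mTORC1 genes (0.66) and 11 of 12 other subunit genes (0.34). With averaged probe sets their medians were 0.21, 0.43 and 0.20. The assembly factors had a median of 0.11, and the organelle and surface transporters described below had -0.003 and -0.07. Of the 10 pump genes, ATP6V0D2 alone passed 2-fold between the controls, a share near the 15.8% of all genes that did so either way.

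Ion transporters of acidic organelles included CLCN6, a chloride-proton exchanger of late endosomes, which read 6.04, 7.44, 8.50 and 8.24 on shRNA control, shRNA ZEB2, siRNA control and siRNA ZEB2. It was higher by 1.40 in the stable pair and the 1 of 10 to pass 2-fold there, beside 4.47% of all genes, while the other 9 all read below 0 and the list median was -0.15. In the transient pair 4 read higher and 6 lower, and 0 passed 2-fold, beside 0.172% of all genes. Of 5 surface acid-base transporters at the filter level, the bicarbonate carriers SLC4A4 (1.70) and SLC4A7 (-1.04) passed 2-fold in the stable pair, beside 4.47% of all genes, and 0 in the transient pair, beside 0.172%. When probe sets were averaged 0 of the 5 passed 2-fold in the stable pair, where 1.84% of all genes were higher and 1.44% lower. With so few genes that count lies near what those shares give. SLC4A4 was dim on 3 arrays (5.37, 5.39 and 4.76) and read 7.07 on shRNA ZEB2, and the mean of its 5 probe sets gave 0.68. For SLC4A7 the mean of its 4 probe sets gave -0.65.

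Between the controls MITF, SLC38A9, NPC2 and CLCN6 read higher on the siRNA side by 1.57, 1.69, 1.90 and 2.46. Their stable differences and these differences share the shRNA control array, on which each of the 4 was lowest.

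**Figure D4:**
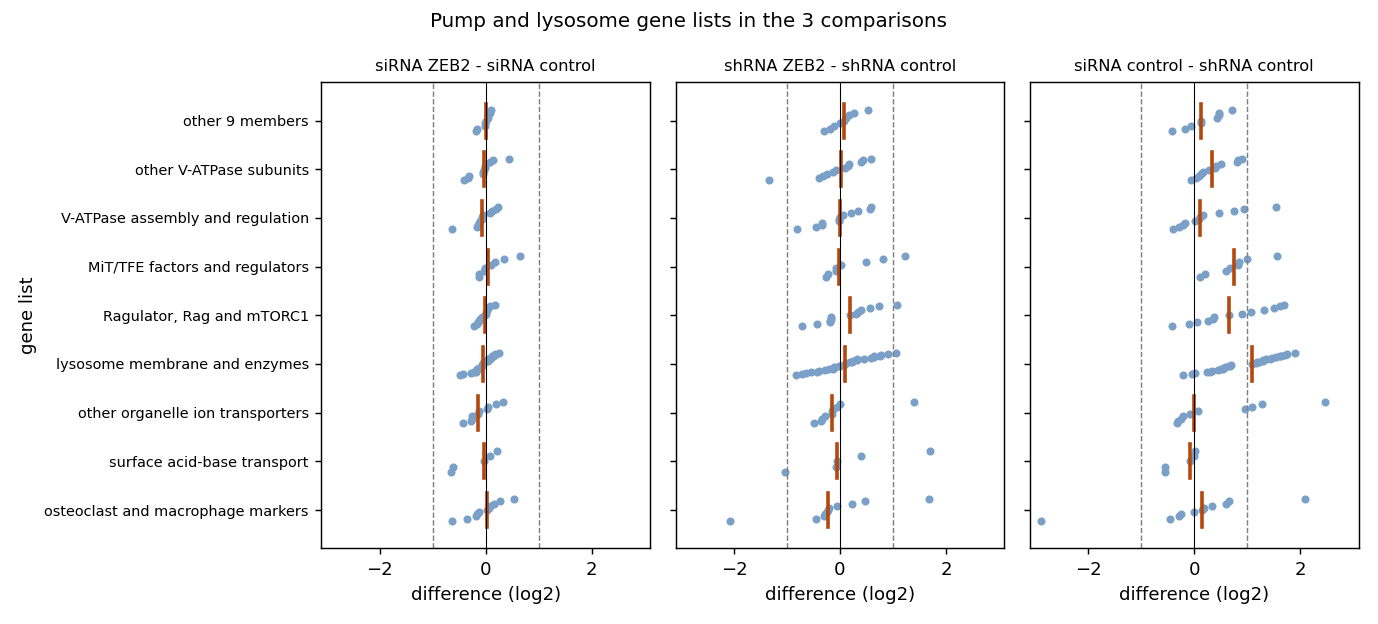
Difference (log2) of each gene at the filter level (blue points, brightest probe set) and the list median (orange bar) for the other 9 pump genes and 8 related gene lists, in the transient pair, the stable pair and between the controls; dashed lines mark 2-fold. Medians lie near 0 in the transient panel, between -0.14 and 0.05. Between the controls the lysosomal (1.09), MiT/TFE (0.74) and Ragulator, Rag and mTORC1 (0.66) lists stand highest.

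Since ATP6V0D2 is known from osteoclasts and macrophages, markers of those cells were read. Of 14 measured, between 9 and 10 were at the filter level on each array. Of the 11 at the filter level on any array, 6 read higher and 5 lower in the transient pair (median 0.02), and 3 higher and 8 lower in the stable pair (median -0.23). The leukocyte gene PTPRC, the fusion receptor gene DCSTAMP and the osteoclast receptor gene OSCAR stayed under the filter level on every array. CALCR, the calcitonin receptor gene, differed by 0.54 in the transient and 1.69 in the stable pair, or by 0.20 and 1.02 when its 2 probe sets were averaged. TNFRSF11A, which encodes the receptor RANK, read 9.13 on the shRNA control, 7.05 on shRNA ZEB2, 6.24 on the siRNA control and 6.08 on siRNA ZEB2, so it was highest on the shRNA control. Signs were mixed among the other markers at the filter level, given here with the transient value first. MMP9 (0.08 and 0.47), like CALCR, read higher in both pairs. CD163 (0.07 and -0.30), CSF1R (0.02 and -0.05), AIF1 (0.27 and -0.21), NFATC1 (0.16 and -0.24) and SIGLEC15 (-0.13 and 0.23) changed sign between the pairs. CTSK, CD14 and ITGB3, picked out after their values were seen, read lower in both, as did TNFRSF11A (-0.16 and -2.07). CTSK, the bone-resorbing protease gene, differed by -0.63 in the transient and -0.46 in the stable pair, the monocyte receptor gene CD14 by -0.35 and -0.23, and the integrin gene ITGB3 by -0.18 and -0.29. Between the controls 6 of the 11 were higher and 5 lower in the siRNA control, with a median of 0.14. CD14 (2.08) and TNFRSF11A (-2.89) passed 2-fold in opposite directions, beside 15.8% of all genes either way. CD14 and ITGB3 (0.65) were highest on the siRNA control and lowest on shRNA ZEB2, whereas ATP6V0D2 was lowest on siRNA ZEB2. The part of such cells in the ATP6V0D2 values was not tested.

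The 5 genes whose profile over the 4 arrays was nearest to that of ATP6V0D2, by root-mean-square distance between log2 profiles centred on their own mean, were ALOX5AP (0.327), NME5 (0.367), MICAL1 (0.367), KLK15 (0.374) and FGGY (0.375). ALOX5AP, needed for leukotriene synthesis, read 5.03, 5.14, 6.17 and 5.16 on shRNA control, shRNA ZEB2, siRNA control and siRNA ZEB2, and so stood out on the siRNA control alone. The nearest pump gene was ATP6V1E1, at 0.65, which ranked 3743 among all genes. With 4 arrays these distances describe the arrays and no more.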

How the data were processed

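The authors deposited log2 values, 1 per probe set and array. The submitters' processing notes name RMA and the affy package, without versions. RMA forces the arrays to 1 distribution and compresses differences of dim genes toward 0. The sorted columns differed from their average by 0.0805 at most. Scanner files and detection were not used here.

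The platform annotation gave 1 symbol for 41097 of 54675 probe sets, several for 1801, and 11777 were unnamed here. RefSeq (GRCh38.p14, names only) held 41043 of the identifiers. Each gene was read by the probe set with the highest mean, kept where its highest value reached the 40th percentile. Differences were taken in Python 3.11.15 and checked on simulated data. Scalings used limma 3.58.1 in R 4.3.3. No test was made with 1 array per group.

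The members and the 10 gene lists were chosen with earlier results of these data known. Genes named are every member, ZEB2, list members at 2-fold in either pair (otherwise the 2 with the largest mean size), the markers checked and the 5 nearest profiles. Other tissue-restricted subunit forms and osteoclast or macrophage markers were picked out after their values were seen. Alternatives were median centring, quantile and cyclic loess scaling, the mean of probe sets, leaving out the cross-hybridising type (_x_at), other filters and 1.5-fold.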

Additional observations from a re-analysis of the deposited data

Results flagged for a closer look

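Pump genes that differed in opposite directions in the pairs under every scaling were ATP6V0A2 (-0.18 in the transient and 0.079 in the stable pair), ATP6V0C (0.073 and -0.11) and ATP6V1A (0.10 and -0.31). Among genes named from the other lists by size of difference, the same held for ATP6V0E2 (0.44 and -1.33), ALDOC (-0.63 and 0.56) and SLC38A9 (-0.17 and 1.07). It also held for NPC2 (-0.080 and 1.05), CLCN6 (-0.26 and 1.40) and SLC4A4 (-0.63 and 1.70). The last were SLC4A7 (0.22 and -1.04) and CD44 (0.081 and -0.38). Genes named for other reasons, some of which also changed sign between the pairs, are left out here. The share of all genes with opposite signs is not given, so nothing is concluded from how many are listed. All these values are readings of the brightest probe set. When probe sets were averaged, both signs turned for ATP6V0A2 (0.091 and -0.13), and the pairs shared a sign for SLC4A7 (-0.17 and -0.65) and CD44 (0.11 and 0.10). With 1 array per group none of these gaps was tested.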

How the results depend on the processing

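ATP6V0D2 kept its direction in the transient pair (-1.81 to -1.67), the stable pair (-0.56 to -0.41) and between the controls (1.06 to 1.19) under the 3 scalings, the mean of probe sets and the removal of cross-hybridising probe sets. When the probe sets of a gene were averaged, the median of the other 9 genes was -0.32 between the controls in place of 0.13, -0.10 in the stable pair in place of 0.08, and the transient pair had 13 genes at 2-fold in place of 26. At 1.5-fold the counts were 332 genes in the transient pair, 2211 in the stable pair and 5132 between the controls, in place of 26, 674 and 2377. The lysosomal count between the controls, an alternative added after seeing the data, was 15 under each scaling and 7 with the mean of probe sets. Transient differences of ATP6V0D1, ATP6V0A1 and ATP6V1E1 and the stable difference of ATP6V1H changed sign between scalings. No paired analysis was possible because each group has 1 array. The causes were not tested.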
